A study of Rattus norvegicus with 3 samples.

Results

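The cells described here were the fibroblasts of the postnatal rat cochlea that carried much RNA of interstitial collagens and of the proteoglycans decorin and lumican. They were 735 of 30641 kept cells, with 128 cells at postnatal day 1 (P1), 149 at P7 and 458 at P14. They were selected on measured levels, so the genes of the selection are given as a description. A level in a cell is given as p10k, which is the UMIs (unique molecular identifiers, counts of RNA molecules) of a gene per 10000 UMIs of that cell. Cells with more than 500 and fewer than 5000 genes and under 25% of UMIs on mitochondrial genes were kept. A fibroblast then had at least 150 p10k of Col1a1, Col1a2, Col3a1, Dcn and Lum together, no UMI of Tac1, under 8 p10k of Ramp3, under 80 p10k of Coch and under 10 p10k of Cnmd.

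Fibroblasts build the extracellular matrix of connective tissue. They secrete fibrillar collagens, which are folded and modified by chaperones and hydroxylases in the endoplasmic reticulum, and small leucine-rich proteoglycans such as decorin and lumican that coat the fibrils and set their thickness. In the cochlea, connective tissue lies under and beside the sensory epithelium, around the nerve and in the bony wall, where bone-forming osteoblasts make the same type I collagen together with proteins that bind mineral.

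The study dissociated the cochlear duct of untreated Sprague-Dawley rats at 3 ages, P1, P7 and P14, pooled the animals of an age, and made 1 droplet library per age with 10x Genomics 3′ chemistry. The labels name the cells greater epithelial ridge cells, while the matrices hold all cells of the dissociated tissue. Each age is 1 library, so age and library cannot be told apart, no test was possible, and all intervals are exact 95% intervals that cover counting error only. No group had another treatment or allele in the labels.

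The P1 and P7 libraries were deeper than the P14 library. The median fibroblast had 5141.5 UMIs at P1, 5787 at P7 and 1523 at P14, against 6565, 6878 and 1614 for all kept cells. Because the P14 group had more cells, the summed UMIs of the fibroblasts were alike, with 732509 at P1, 818387 at P7 and 795666 at P14, and 3 UMIs were worth 4.10, 3.67 and 3.77 CPM (UMIs per 1000000 UMIs of the summed fibroblasts). The median share of UMIs on ribosomal protein genes was 15.7%, 14.0% and 8.58%, and that on mitochondrial genes 8.19%, 9.35% and 3.74%. Between 19 and 60 barcodes occurred in both libraries of a pair, and none of them was a fibroblast in both.

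The fibroblasts were 1.00% of the kept cells at P1 (0.836 to 1.19%), 1.18% at P7 (1.00 to 1.39%) and 8.67% at P14 (7.93 to 9.46%). The intervals of P1 and P7 overlapped, and that of P14 lay above both. The count of cells with 150 p10k or more of the 5 matrix genes followed another course, with 153 at P1, 661 at P7 and 908 at P14. At P1, 83.7% of these collagen-rich cells were fibroblasts by the whole rule, at P7 22.5% and at P14 50.4%. The limit on Ramp3, a subunit of receptors for calcitonin family peptides, alone left out 394 cells at P7 and 140 at P14. The limit on Coch, the cochlin of spiral ligament fibrocytes, alone left out 177 cells at P14 and none at P1 or P7. Tac1, which encodes the precursor of substance P, alone left out 16 cells at P1, 44 at P7 and 1 at P14. At the edge of the rule the lowest fibroblast had 150.9, 150.0 and 150.1 p10k of the matrix genes at P1, P7 and P14, and the highest cell left out had 149.3, 149.9 and 149.1 p10k.

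**Figure D1:**
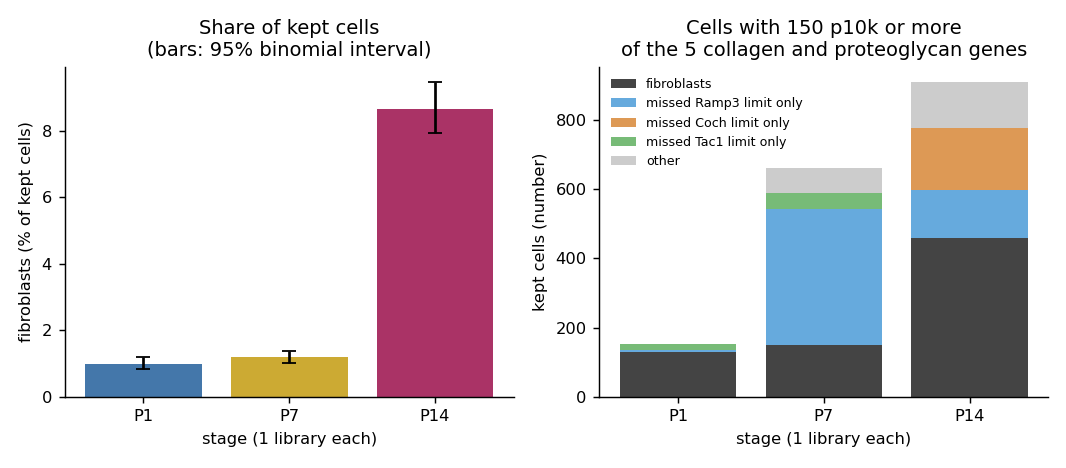
Left, percent of kept cells that were fibroblasts at each stage (1 library each, bars with the 95% binomial interval), highest at P14 with 8.67%. Right, number of kept cells with 150 p10k or more of the 5 matrix genes, split into the fibroblasts and the cells that missed 1 limit, of which the Ramp3 limit took 394 at P7 and the Coch limit 177 at P14.

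Of the 5 matrix genes of the selection, Col1a1, the alpha 1 chain of type I collagen, had the lowest P7 over P1 and the highest P14 over P7 ratio. At P14, 30 osteoblast-like cells described below held 3023 of its 5263 UMIs. Without them and 10 cells with macrophage markers, its P14 over P7 ratio was no longer the highest of the 5. Its lowest, median and highest level in a cell was 13.6, 99.3 and 868 p10k at P1, 0, 0 and 151 p10k at P7 and 0, 18.6 and 1045 p10k at P14. All 128 cells had a Col1a1 UMI at P1, 52 of 149 at P7 and 320 of 458 at P14, and after each cell was thinned to 1000 UMIs it was again all cells at P1, 24.3% at P7 and 63.8% at P14. The name Col1a1 fibroblast thus held for most cells at P1 and P14 and for a minority at P7, although all of these cells passed the same limit. Col3a1, the chain of type III collagen found with type I in soft tissue, differed less, with medians of 77.1, 75.4 and 50.3 p10k. Dcn, decorin, had medians of 33.2, 90.6 and 110.2 p10k, and Lum, lumican, of 11.8, 9.68 and 25.9 p10k.

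The gene with the most p10k of the 5 was Col1a1 in 68 of 128 cells at P1, and Dcn in 87 of 149 cells at P7 and in 299 of 458 at P14. Summed over the cells, Col1a1 stood at 11902 CPM at P1, 1433 CPM at P7 and 6615 CPM at P14, and Dcn at 3349 CPM at P1, 9136 CPM at P7 and 10900.3 CPM at P14. Col3a1 was at 8909, 7979 and 7281 CPM and Lum at 1403, 1376 and 3315 CPM in the same order. Without the osteoblast-like cells and those with macrophage markers, Col1a1 was at 3368 CPM and Lum at 3647 CPM at P14. Col1a2, whose protein pairs with that of Col1a1, was counted at 27.3, 41.5 and 155 CPM, and at P1 only 18 of 128 cells had a UMI of it although every cell had Col1a1. In endothelial cells of the same libraries, which should lack these genes, Col1a1 was at 8.32, 15.6 and 76.1 CPM and Dcn at 59.5, 132 and 299 CPM, which gives the level that free RNA in the droplets can bring. The Col1a1 level of the P7 fibroblasts was above that level and rested on few cells, since 5 of the 149 held 39.5% of its UMIs.

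**Figure D2:**
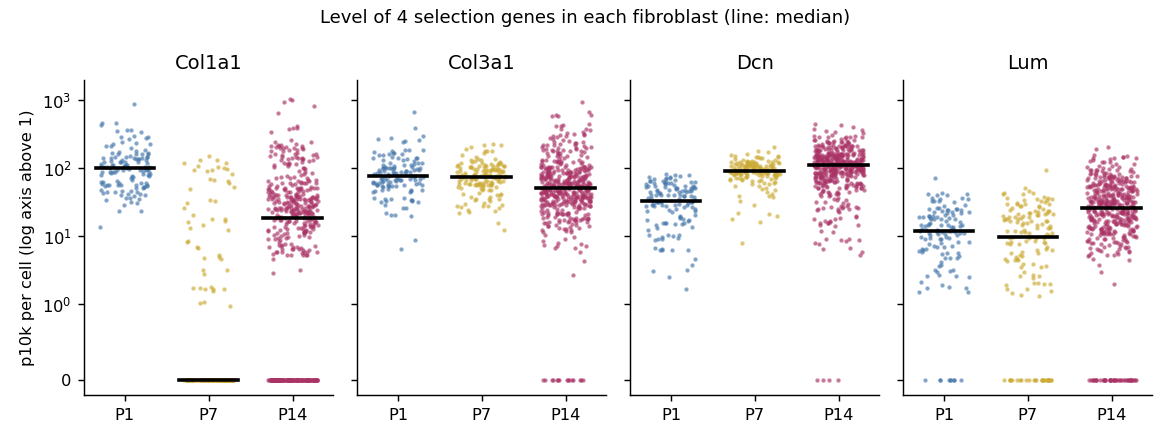
Level of Col1a1, Col3a1, Dcn and Lum in each fibroblast (1 point a cell, p10k on an axis that is logarithmic above 1, black line the median) at P1, P7 and P14. Most P7 cells lie at 0 for Col1a1, while their Col3a1 and Dcn levels overlap those of the other stages.

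Other matrix genes, which the rule did not use, were also higher in the fibroblasts than in the remaining kept cells of the same library. Ranked by the smallest ratio over the 3 libraries, the first after Col1a1, Col3a1, Dcn and Lum was Gpc3, a cell surface heparan sulfate proteoglycan, with 1163, 2010.0 and 424 CPM in the fibroblasts against 201, 456 and 56.2 CPM in the other kept cells at P1, P7 and P14. Col6a2, a chain of the beaded filament collagen VI, had 1137, 379 and 563 CPM in the fibroblasts against 153, 106 and 145 CPM in the other kept cells. Pcolce, an enhancer of the protease that trims procollagen, had 608, 737 and 652 CPM in the fibroblasts against 141, 215 and 173 CPM in the other kept cells. Tgfbi, a matrix protein induced by TGF-beta, had 1068, 1219 and 909.9 CPM in the fibroblasts against 240.1, 381 and 264 CPM in the other kept cells. Shisa3, Aspnl1, Cldn1, AABR07049695, Col6a1, Adamts12 and Fibin completed the 15 genes, with a smallest log2 ratio from 1.54 (Fibin) to 1.88 (Shisa3). Since the cells were chosen by correlated collagen genes, these ratios are a description. The other kept cells were of all types. Against the collagen-rich cells left out by the Ramp3 or Coch limit alone, Gpc3, Col6a2, Pcolce and Tgfbi were not among the 15 highest ratios. Fibin and Shisa3 were among them at P7 against the Ramp3 group.

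Markers of the sensory organ were at or near 0 in the fibroblasts. The 7 hair cell markers, among them Pou4f3, Myo7a, Tmc1 and Slc17a8, summed to 2.73, 0 and 2.51 CPM at P1, P7 and P14, and 6, 7 and 6 of them had no UMI. They were near 0 in the other kept cells too, at 5.42, 0.293 and 5.16 CPM, so their low level does not set the fibroblasts apart. The 8 cochlear epithelium markers summed to 27.3, 18.3 and 8.80 CPM, and the 5 melanocyte and intermediate cell markers to 10.9, 2.44 and 6.28 CPM. The other kept cells had 132, 189 and 91.9 CPM of the epithelium markers and 14.4, 17.1 and 8.11 CPM of the melanocyte markers. T and NK cell markers summed to 0, 0 and 3.77 CPM and B cell markers to 0, 0 and 16.3 CPM. Some markers of other cells were present, mostly at P14. The 7 Schwann cell and glia markers summed to 138, 623 and 969 CPM (other kept cells 1334, 5322 and 7433 CPM), the 7 endothelial markers to 88.7, 46.4 and 278 CPM and the 8 macrophage markers to 6.83, 34.2 and 109 CPM. Leaving out each cell with over 10 p10k of endothelial, glial, macrophage, neutrophil, B cell and erythroid markers kept 121, 115 and 259 fibroblasts, and the counts of genes past 2-fold stayed within 1.5 times those given next. The 8 markers of spiral ligament fibrocytes, the neighbouring connective tissue type, summed to 1005, 3723 and 3980.3 CPM. The other kept cells had more at each stage, with 6381, 7450 and 9791 CPM. Otor was the highest in the fibroblasts at P1 and P7 and Coch at P14. Otor at P7 and Coch at P14 were not told from free RNA, as described below.

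Between P1 and P7, 495 of 8173 genes (6.06%) were 2-fold or more higher in the summed fibroblasts at P7 and 594 (7.27%) lower. Genes with 10 CPM or more in either stage were compared, a ratio is log2 of (CPM + 10) at the later stage over the earlier, and the median over all genes was 0.03. Intervals beside a ratio are counting intervals of the ratio of CPM without the added 10. Penk, the precursor of enkephalin peptides, had 409.6 CPM at P1, 2.44 CPM at P7 and 11.3 CPM at P14, and the P7 over P1 ratio was -5.08. Dlk1, a transmembrane ligand of the Notch family found in immature cells, had 246, 1.22 and 2.51 CPM, and Plagl1, an imprinted zinc finger gene, had 613, 22.0 and 94.3 CPM. Both were high at P1 and low later, with ratios of -4.51 and -4.28 (-5.57 to -4.12).

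Sfrp1, a secreted binder of Wnt proteins, stood at 804 CPM at P1, 47.7 CPM at P7 and 123 CPM at P14, a ratio of -3.82 (-4.58 to -3.61). Mfap5, a component of microfibrils, had 609, 62.3 and 187 CPM and a ratio of -3.10 (-3.74 to -2.87). S100a6, a calcium-binding protein, had 324, 18.3 and 133 CPM, and in the other kept cells it went the opposite way, with 26.5, 158 and 695 CPM. The histone gene Hist1h1e had 481, 35.4 and 33.9 CPM, and a similar step was seen in the other kept cells, from 333 to 68.6 CPM. AABR07054614 and the protease gene Prss23 completed the 10 lowest P7 over P1 ratios, to which Col1a1 also belonged, with 187 against 4.89 CPM and 123 against 7.33 CPM.

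Higher at P7 than at P1 was first Fam180a, with 9.56 CPM at P1, 396 CPM at P7 and 123 CPM at P14 and a ratio of 4.38 (4.31 to 6.70). Aard had 69.6, 609.7 and 49.0 CPM and a ratio of 2.96 (2.71 to 3.58). Col15a1, a collagen at the edge of basement membranes, had 13.7, 337 and 235 CPM, but endothelial cells held 302, 356 and 175 CPM of it. Agt, the precursor of angiotensin, had 2.73, 147 and 46.5 CPM, Aldh1a1, an enzyme of retinoic acid synthesis, 2.73, 145 and 50.3 CPM, and the homeobox gene Irx1 31.4, 296 and 61.6 CPM. At P7 Agt, Aldh1a1 and Irx1 were above their levels in endothelial cells, which were 9.27, 13.3 and 42.9 CPM. LOC100360791 had 266 CPM at P7, close to the 262 CPM of endothelial cells, and its level outside the fibroblasts moved the same way. RGD1563354, Dner and G0s2 had 191, 94.1 and 104 CPM at P7 and 12.3, 2.73 and 5.46 CPM at P1.

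Between P7 and P14, 1105 of 8733 genes (12.7%) were 2-fold or more higher at P14 and 573 (6.56%) lower, with a median ratio over all genes of 0.13. With TMM size factors, which rescale the libraries on the bulk of genes, the split was 879 higher and 771 lower and the median ratio -0.01, so values of this comparison are read against that shift. The 10 highest ratios fell into those above and those not above the level in other cell types of the P14 library. Ptgds, prostaglandin D synthase, had 1.37 CPM at P1, 2.44 CPM at P7 and 2672 CPM at P14, and Coch had 9.56, 8.55 and 1282 CPM, with the limit of the rule on Coch. At P14, endothelial cells held 2132 CPM of Ptgds and 969.9 CPM of Coch, and macrophages 2110.5 and 1503 CPM. Over all fibroblasts the Ptgds and Coch levels are therefore not told from free RNA. Clec2g and Tm4sf1 were higher in endothelial cells (1612 and 1835 CPM) than in the fibroblasts (711 and 586 CPM).

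The other 6 genes were above that background. Cldn11, a claudin of tight junctions, had 270.3 CPM at P1, 57.4 CPM at P7 and 2028 CPM at P14, against 190.4 CPM in endothelial cells and 358 CPM in macrophages at P14, a ratio of 4.92 (4.72 to 5.59). Cemip, a hyaluronan-degrading protein, had 35.5, 73.3 and 1220.4 CPM and a ratio of 3.88 (3.68 to 4.46). Slc7a11, the cystine and glutamate exchanger, had 8.19, 7.33 and 656 CPM, and Cldn1, another claudin, 228, 41.5 and 637 CPM. Slc6a13, a transporter of GABA and taurine, had 6.83, 15.9 and 298 CPM, and Tgfbr3, the TGF-beta co-receptor betaglycan, 88.7, 40.3 and 596 CPM. Cldn1 and Cldn11 were lowest at P7 of the 3 stages, while Slc7a11 and Slc6a13 were under 20 CPM at both earlier stages. In the other kept cells these genes were higher at P14 as well, with P14 over P7 ratios of 4.02 for Cldn11, 4.14 for Cemip and 4.73 for Slc7a11.

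**Figure D3:**
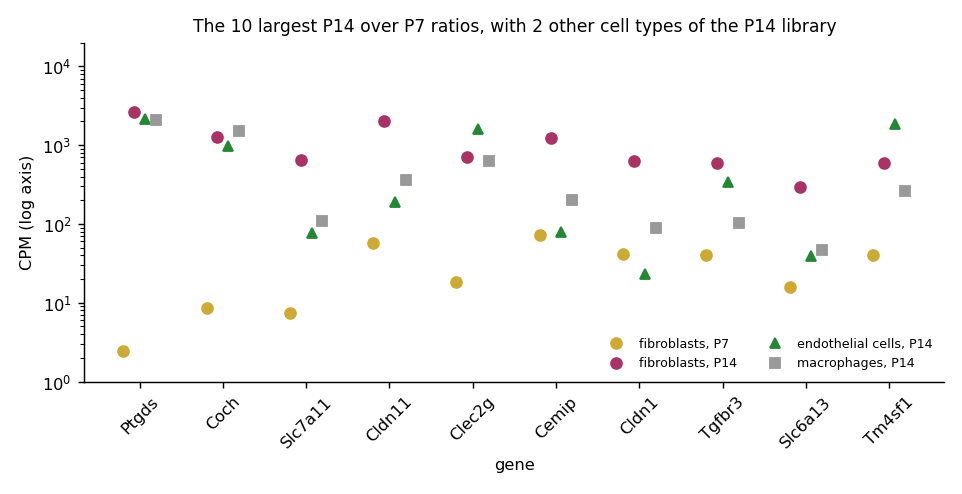
CPM (log axis) of the 10 genes with the highest P14 over P7 ratio in the fibroblasts at P7 and P14, and in endothelial cells (987 cells) and macrophages (98 cells) of the P14 library. For Ptgds and Coch the fibroblasts at P14 lie beside the other cell types, and for Cldn11, Cemip, Slc7a11, Cldn1, Tgfbr3 and Slc6a13 they lie above them.

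Lower at P14 than at P7 were Otor, Vcan, Crym, LOC100360791, Aard, Fbn2, AABR07039356, Nell1, Tuba1a and Maged2. Vcan, the large proteoglycan versican of young matrix, had 516 CPM at P1, 637 CPM at P7 and 35.2 CPM at P14, a ratio of -3.84 (-4.78 to -3.63). Fbn2, the fibrillin of developing microfibrils, had 299, 252 and 16.3 CPM and a ratio of -3.31 (-4.88 to -3.14). Both were also lower in the other kept cells, with ratios of -1.99 and -2.42. Otor, a secreted product of fibrocytes, had 729, 3077 and 167 CPM, and Crym, a thyroid hormone binding protein, 219.8, 496 and 30.2 CPM, but endothelial cells at P7 held 3944 and 858 CPM, so neither level is read as expression. AABR07039356 had 67.2 CPM at P7 and no UMI in any kept cell at P14. Tuba1a and Maged2 had P14 over P7 ratios of -2.86 and -2.77, and in the other kept cells -2.30 and -3.17. Nell1, a secreted protein with roles in bone growth, stood at 23.2, 144 and 10.1 CPM.

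The fibrillar collagens were read by stage from a list of 11, of which 9 passed the level filter. At P7 against P1 they were 2 higher and 4 lower of 9 (6.06% and 7.27% of all genes), with a median of -0.16. Col1a1, Col1a2 and Col3a1 of this list were used by the selection, so its counts and median are a description. Col5a1, Col5a2 and Col5a3, the chains of type V collagen that start fibrils, had ratios of -1.88 (-2.63 to -1.57), -2.02 (-2.34 to -1.82) and -1.29 (-1.97 to -0.92), in the direction of Col1a1. Col2a1, the type II collagen of cartilage, had 84.6, 349 and 187 CPM with 156 CPM in endothelial cells at P7. At P14 against P7 the list had 5 higher and 0 lower of 9 (12.7% and 6.56% of all genes), with a median of 1.54, with Col1a1 (2.20), Col1a2 (1.67), Col5a2 (1.54), Col11a1 (1.58) and Col11a2 (3.36) higher. Without the 30 osteoblast-like cells and 10 cells with macrophage markers of P14, only Col1a1 (1.23) and Col1a2 (1.35) of these stayed past 2-fold, the P14 level of Col11a1 was 587 instead of 2340.2 CPM, and the list median was 0.05.

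Of the other collagens, the list at P7 against P1 had 1 higher and 6 lower of 13 (6.06% and 7.27% of all genes), with a median of -0.73. Col6a1 and Col6a2 of the collagen VI filament had ratios of -2.39 (-2.85 to -2.15) and -1.56 (-1.78 to -1.40), and Col12a1 and Col14a1, which bind the surface of fibrils, -1.92 (-2.40 to -1.66) and -1.70 (-2.30 to -1.39). At P14 against P7 it had 2 higher and 4 lower of 12 (12.7% and 6.56% of all genes), with a median of -0.71, where Col12a1 (397, 97.8 and 280.3 CPM) and Col18a1 (329, 208 and 449.9 CPM), a basement membrane collagen, were higher and Col16a1 (349, 269 and 75.4 CPM) and Col26a1 (154, 165 and 33.9 CPM) lower.

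Several enzymes and chaperones that make collagen were lower at P14. The counts were 2 higher and 3 lower of 19 (6.06% and 7.27% of all genes), with a median of 0.05, at P7 against P1 and 1 higher and 7 lower of 19 (12.7% and 6.56% of all genes), with a median of -0.17, at P14 against P7. Serpinh1, the collagen chaperone HSP47, had 992 CPM at P1, 1265 CPM at P7 and 427 CPM at P14 and a P14 over P7 ratio of -1.54 (-1.75 to -1.39). P4hb, a subunit of prolyl 4-hydroxylase, had 532, 569 and 245 CPM, Ppib, the isomerase cyclophilin B, 1352, 1944 and 770.4 CPM, and Fkbp10, which aids crosslinking, 203, 297 and 106 CPM. The prolyl 3-hydroxylase genes P3h1, P3h3 and P3h4 had ratios of -1.32, -1.45 and -1.38. All 7 were also past 2-fold lower without those P14 cells, with -1.77 for Serpinh1. The other kept cells of the libraries had a list median of -0.78 in that comparison and -1.59 for Serpinh1. Lox, the lysyl oxidase that crosslinks collagen and elastin, had 724, 232 and 364 CPM, and Plod2, a lysyl hydroxylase, 54.6, 31.8 and 285 CPM, of which the P14 level was 76.1 CPM without them.

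Among the small leucine-rich proteoglycans, Dcn was the 1 gene of 8 past 2-fold higher at P7, with a ratio of 1.45 (1.38 to 1.51), and Epyc the 1 lower (6.06% and 7.27% of all genes). Lum was the 1 of 8 higher at P14, with a ratio of 1.26 (1.17 to 1.37), and Fmod the 1 lower (12.7% and 6.56% of all genes). Fmod had 23.2 CPM at P7 and 3.77 CPM at P14. Dcn and Lum were genes of the selection, so of the genes that it did not use none was past 2-fold higher. The list medians were 0.16 and 0.35, against 0.03 and 0.13 over all genes. For the elastic fibre and microfibril genes the counts were 1 higher and 4 lower of 15 (6.06% and 7.27% of all genes), with a median of -0.33, at P7 and 2 higher and 2 lower of 15 (12.7% and 6.56% of all genes), with a median of -0.35, at P14. Eln, elastin itself, had 414 CPM at P1, 53.8 CPM at P7 and 60.3 CPM at P14 and a P7 over P1 ratio of -2.73 (-3.43 to -2.48), and 5 P1 cells held 52.1% of its UMIs. Fbln1 (-2.07) and Fbln5 (-1.78), fibulins of elastic fibres, went with it at P7, while Efemp1, a related fibulin, had 131, 565 and 441 CPM and was higher.

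The matricellular and adhesive proteins, which link cells to matrix, had 4 higher and 8 lower of 22 (6.06% and 7.27% of all genes), with a median of -0.44, at P7 against P1 and 6 higher and 6 lower of 21 (12.7% and 6.56% of all genes), with a median of -0.69, at P14 against P7. Mgp, matrix Gla protein, an inhibitor of calcification, stood at 6289 CPM at P1, 1718 CPM at P7 and 3762 CPM at P14, with ratios of -1.87 (-1.96 to -1.79) and 1.13 (1.04 to 1.22), so it was lowest at P7 as Col1a1 was. Fn1, fibronectin, had 954, 989.8 and 337 CPM with a P14 over P7 ratio of -1.53 (-1.76 to -1.35). Sparcl1, a SPARC relative, had 1225, 3325 and 2780.1 CPM and Ccn3, a CCN family protein, 523, 108 and 36.4 CPM, although the other kept cells held 1771, 1330.4 and 195 CPM of Ccn3. Tnc, Thbs1 and Ccn1 passed 2-fold at P14, but without the osteoblast-like cells and those with macrophage markers they did not, and Thbs1 and Ccn1 stood at 3.04 and 51.7 CPM in place of 27.6 and 175 CPM. Of 7 hyaluronan and large proteoglycan genes tested at P7 against P1, 0 were higher and 1 lower (6.06% and 7.27% of all genes). The lower gene was Prg4, lubricin, with 106 CPM at P1 and 1.22 CPM at P7. Of 5 tested at P14 against P7, 1 was higher, Cemip, and 2 lower, Vcan and Hyal2 (12.7% and 6.56% of all genes).

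The matrix proteases had 1 higher and 2 lower of 12 (6.06% and 7.27% of all genes), with a median of -0.08, at P7 and 3 higher and 2 lower of 13 (12.7% and 6.56% of all genes), with a median of -0.40, at P14. Htra1, a secreted serine protease, had 99.7, 307 and 104 CPM and Htra3, its relative, 161, 50.1 and 169.7 CPM. Mmp13, a collagenase of bone and cartilage, had no UMI at P1 or P7 and 95.5 CPM at P14, in 5 of 458 cells, and 19.8 CPM without the osteoblast-like cells and those with macrophage markers. The protease inhibitors had 2 higher and 3 lower of 10 (6.06% and 7.27% of all genes), with a median of 0.20, at P7 and 5 higher and 2 lower of 10 (12.7% and 6.56% of all genes), with a median of 1.03, at P14. With TMM size factors the P14 median was 0.89. Serping1, the C1 inhibitor, had 146, 315 and 728 CPM, Reck, a membrane inhibitor of metalloproteases, 46.4, 55.0 and 161 CPM and Cst3, cystatin C, 1387, 1585 and 5764 CPM, but endothelial cells and macrophages at P14 held 12316 and 8305 CPM of Cst3. Serpinf1, the factor PEDF, had 624, 1004 and 199 CPM with a P14 over P7 ratio of -2.28 (-2.59 to -2.09), and Timp2, an inhibitor of metalloproteases, had a ratio of -1.47. Serpine2 had 348, 2601 and 1908 CPM, a P7 over P1 ratio of 2.87 (2.71 to 3.09).

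Of the growth factor ligands, the counts were 5 higher and 5 lower of 28 (6.06% and 7.27% of all genes), with a median of 0.17, at P7 and 6 higher and 8 lower of 28 (12.7% and 6.56% of all genes), with a median of 0.15, at P14 (-0.13 with TMM size factors and -0.21 without the osteoblast-like cells and those with macrophage markers). The Wnt ligands Wnt5a and Wnt4 were higher at each later stage, with 21.8 CPM at P1, 182 CPM at P7 and 512 CPM at P14, and 9.56, 79.4 and 348 CPM. The other kept cells had 26.7, 68.9 and 261 CPM of Wnt5a and 6.10, 25.5 and 198 CPM of Wnt4. Igf2, insulin-like growth factor 2, was lower at each later stage, with 598, 271 and 122 CPM, and Igf1, with 542, 653 and 219 CPM, was lower at P14. Mdk, midkine, had 1949, 2784 and 1155 CPM, and its relative Ptn, pleiotrophin, 5196, 10870.2 and 8492 CPM. Edn3, endothelin 3, had 108, 214 and 62.8 CPM. Gas6, a ligand of TAM receptors, had 73.7, 3.67 and 79.2 CPM, under the 229 CPM of endothelial cells at P14.

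Among the receptors, 2 were higher and 4 lower of 22 at P7 (6.06% and 7.27% of all genes), and 3 higher and 1 lower of 21 at P14 (12.7% and 6.56%), with medians of 0.22 and 0.34. Kit, the receptor for stem cell factor, had 19.1, 122 and 244 CPM, Lepr, the leptin receptor, 142, 484 and 346 CPM, and Ptch1, the Hedgehog receptor and target, 325, 145 and 486 CPM. The binding proteins of Igf and the Wnt antagonists had 3 higher and 6 lower of 14 (6.06% and 7.27% of all genes), with a median of -0.35, at P7 and 4 higher and 2 lower of 14 (12.7% and 6.56% of all genes), with a median of 0.07, at P14 (-0.08 with TMM size factors). Igfbp6 (586, 79.4 and 302 CPM) and Sfrp1 were lowest at P7, while Igfbp2 (537, 1723 and 444 CPM) was highest there and the Wnt antagonists Sfrp4 (32.8, 179.6 and 183 CPM) and Frzb (45.1, 248 and 268 CPM) were lowest at P1. Igfbp7 was at 1389.7, 1146 and 3283 CPM, and endothelial cells held 3728, 5959 and 2453 CPM of it. Wif1 passed 2-fold at P14 with 85.5 CPM, and had 16.7 CPM without the osteoblast-like cells and those with macrophage markers.

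The mesenchymal transcription factors had 4 higher and 7 lower of 35 (6.06% and 7.27% of all genes), with a median of -0.26, at P7 and 7 higher and 2 lower of 33 (12.7% and 6.56% of all genes), with a median of 0.29, at P14. Tbx18 (80.5, 412 and 300.4 CPM), a T-box factor of otic mesenchyme, Pou3f4 (91.5, 254 and 84.2 CPM), a factor of the same mesenchyme that is linked to deafness, and Sox9 (28.7, 200.4 and 309 CPM), a driver of cartilage, were higher at P7 than at P1. The other kept cells had 318, 306 and 255 CPM of Tbx18. Lower at P7 were Nr2f2 (334, 112 and 317 CPM), Prrx1 (116, 41.5 and 42.7 CPM), Foxp1, Foxp2, Tbx15, Nfib and Meox1. Higher at P14 than at P7 were Ebf1 (209, 188 and 576 CPM), Osr1, Zic2, Zic4, Snai1 (152 CPM at P14), Nr2f2 and Runx2, the factor that starts bone formation. Runx2 had 23.2, 25.7 and 72.9 CPM, of which the P14 level was 41.1 CPM without the osteoblast-like cells and those with macrophage markers.

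Chemokine, complement and other innate genes had 4 higher and 3 lower of 16 (6.06% and 7.27% of all genes), with a median of -0.31, at P7 against P1 and 11 higher and 1 lower of 22 (12.7% and 6.56% of all genes), with a median of 1.05, at P14 against P7. That P14 median was 0.90 with TMM size factors and 0.89 without the osteoblast-like cells and those with macrophage markers. In the other kept cells the median at P14 against P7 over the same genes was 0.80. Il33, an alarmin kept in the nucleus of stromal cells, had 57.3 CPM at P1, 44.0 CPM at P7 and 310.4 CPM at P14, a ratio of 2.57 (2.31 to 3.37), while the other kept cells had 38.9 CPM at P14. Vcam1, an adhesion molecule for leukocytes, had 57.3, 275 and 645 CPM, with 119 CPM in endothelial cells and 226 CPM in macrophages at P14. Without the osteoblast-like cells and those with macrophage markers the P14 level of Il33 was 359 CPM. C3, Cxcl1, Cxcl14, Ccl19, Il1r1, Lgals3 and Ackr3 were each under 50 CPM at P14 and under 10 CPM at P7, and Il1r1, Lgals3 and Ackr3 were higher in endothelial cells. C3 and Lgals3 were no longer past 2-fold without the osteoblast-like cells and those with macrophage markers. Cxcl16 had 113 CPM at P14, under the 311 CPM of macrophages.

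Of the proliferation genes, Mki67 had 164, 40.3 and 11.3 CPM and Top2a 154, 39.1 and 5.03 CPM. The list had 0 higher and 5 lower of 10 (6.06% and 7.27% of all genes), with a median of -0.91, at P7 against P1 and 0 higher and 7 lower of 8 (12.7% and 6.56% of all genes), with a median of -1.47, at P14 against P7. The P1 level rested on few cells, since the sub-cluster of 10 cells led by these genes held 106 of the 120 Mki67 UMIs and 110 of the 113 Top2a UMIs. With those 10 cells left out at P1 alone, 5 were higher and 0 lower of 8, with a median of 1.41. Over all 8158 genes, 552 were then higher and 599 lower. Those cells were set apart by these same genes, and the P7 cells with such UMIs stayed in. These counts therefore give no direction between the stages. At P7, 31 Mki67 UMIs lay in the sub-cluster of 46 cells and 1 in each of the others. The median of the other kept cells was 0.24 at P14 against P7. With the mean of each cell's CPM, the fibroblasts had 0 higher and 3 lower of 7 at P14 against P7, with a median of -0.96. Over all 8700 genes, 1187 were then higher and 600 lower. After thinning to 1000 UMIs, 10 of 127 cells at P1, 3 of 144 at P7 and 6 of 426 at P14 had 2 or more UMIs of the 10 genes, which is 7.87%, 2.08% and 1.41%. The P7 share lay at the floor of 3 cells. Without thinning the shares were 13.3%, 4.70% and 1.97%.

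**Figure D4:**
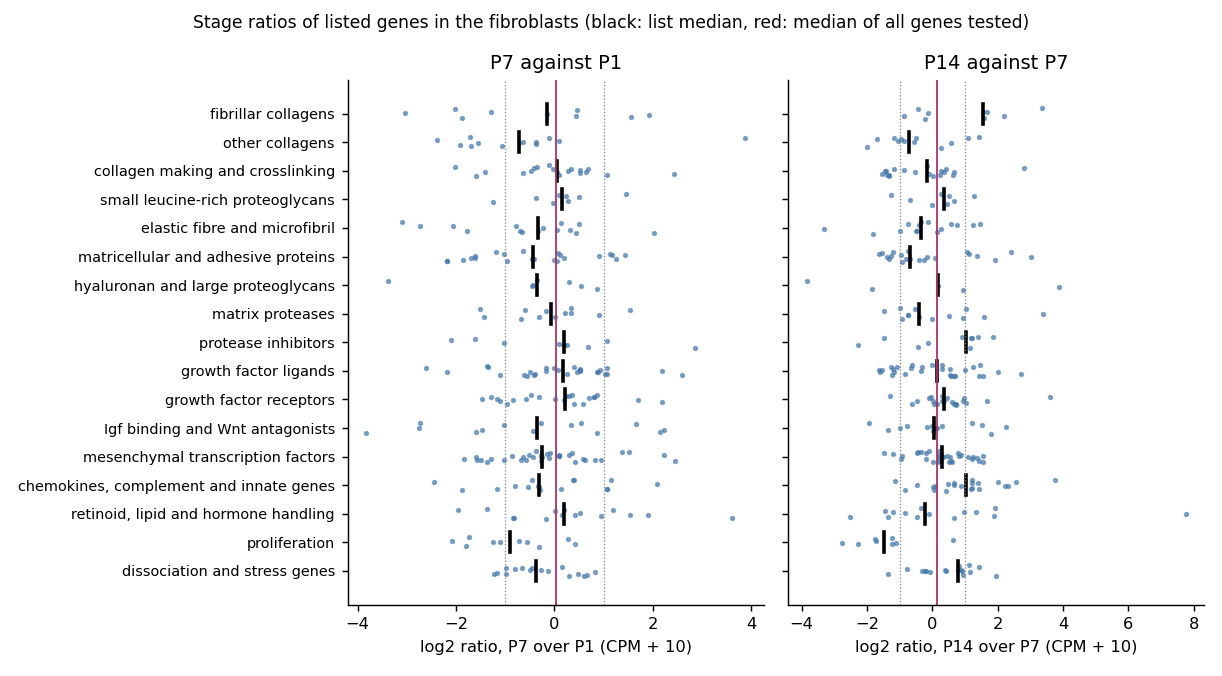
Log2 ratio of CPM + 10 in the fibroblasts for each gene of 17 lists (1 point a gene with 10 CPM or more in either stage), P7 over P1 on the left and P14 over P7 on the right, with the list median in black, the median of all genes tested in red (0.03 and 0.13) and 2-fold as dotted lines. At P14 the fibrillar collagens, protease inhibitors and innate genes have medians above 1 (0.05 for the fibrillar collagens without the osteoblast-like cells and those with macrophage markers) and the proliferation genes a median below -1. With TMM size factors the medians of the protease inhibitors and innate genes were 0.89 and 0.90. With the mean of each cell's CPM that of the proliferation genes was -0.96.

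Within each stage the fibroblasts were divided into sub-clusters on their own variable genes, as a description of how the cells vary. At P1 there were 4, of 43, 38, 37 and 10 cells. The 43 cells were led by Gprc5b, Fez1, Timm44, Egfl6 and Edn3, and held 7903 CPM of Col1a1. The 38 cells were led by Klf5, Itga6, Sbspon, Tenm2 and Cdh5, the cadherin known from endothelial cells. These cells held 28 UMIs of Cdh5 and 14 of Cldn5. Of the other endothelial markers they held 2 of Egfl7, 1 each of Kdr and Tek, and none of Flt1 or Esam. They had 14876 CPM of Apod, an apolipoprotein of fibroblasts and glia, 638 CPM of Cldn1 and 1429 CPM of Igfbp6, against 50.9, 8.48 and 576 CPM in the 37 cells. The 37 cells were led by the metallothioneins Mt2A and Mt1, Penk, Aspnl1 and Gja1, and they held most Eln (1140.2 CPM), Penk (1225 CPM), Lox (1611 CPM) and Col1a1 (17718 CPM) and least Dcn (1585 CPM). Of the P1 UMIs, 289 of 300 for Penk and 269 of 303 for Eln came from these 37 cells. The 10 cells were led by Top2a, Nusap1, Tpx2, Ube2c and Mki67, genes of mitosis.

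At P7 the 3 sub-clusters had 55, 48 and 46 cells. The first was led by Hpca, Apod, Nnat, Egfr and Unc5b and the second by Rbp4, Zfp513, Pawr, Acy1 and Vtn. Apod was at 13250.4 CPM in the first and 4836 CPM in the second, and both had little Col1a1, with 182 and 235 CPM. The 46 cells were led by Col1a1 itself (4018 CPM), Gdf10, Mme, Ibsp and Clec11a. Gdf10 is a growth factor of the TGF-beta family and Clec11a a growth factor for bone, and they stood at 386 and 235 CPM in these cells against 23.5 and 30.7 CPM in the other P7 fibroblasts. Col3a1 ranged only from 7264 to 8938 CPM over the 3. Col1a1 at P7 was therefore found mainly in 1 sub-cluster of 3, whereas at P1 its lowest sub-cluster had 6958 CPM.

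At P14 there were 5 sub-clusters, of 217, 115, 86, 30 and 10 cells. The 217 cells were led by the haemoglobin genes Hba-a2 and LOC103694857 and by the transporters Slc16a11, Slc38a3 and Slc6a13, and 5 cells held 94.3% of the Hba-a2 UMIs. They held 617 CPM of Slc6a13, 1283 CPM of Slc7a11, 3279 CPM of Cldn11, 2010.2 CPM of Cemip and 539 CPM of Il33. Their sum over 9 markers of meningeal fibroblasts was 6829.9 CPM, of which Ptgds was 4498 CPM, against 1156 to 4363 CPM in the other P14 sub-clusters, and with only Slc6a13 and Slc7a11 among the 10 leading genes they were given no name. The 115 cells were led by Myoc (1502 CPM), the myocilin first known from the eye, Col15a1, LOC100911545, Igfbp2 and Ramp1, and shared Apod (27754 CPM) and Cldn11 (1615 CPM) with the first. They had little Col1a1 (584 CPM), and of the 5 the most Coch (2969 CPM) and Sox9 (829 CPM).

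The 86 cells were led by Plac9, Mgp (16830.4 CPM), Fxyd5, Ltbp4 and Ednra. They had the highest Col3a1 of all 12 sub-clusters (17973 CPM) together with Postn (519 CPM), periostin, and Col1a1 (8377 CPM), and little Apod (1537 CPM). The 10 cells carried macrophage markers, with Ptprc, C1qa, Csf1r and C1qc among their 10 leading genes, and Lyz2 at 4709 CPM, next to 9288 CPM of Dcn. Groups under 30 cells are counted here and not described further. At resolution 0.3 there were 4, 2 and 4 sub-clusters at P1, P7 and P14, and at 1.0 there were 6, 5 and 7. The smallest at P14 then had 30 and 31 cells, so the 10 cells with macrophage markers were a group of their own only at 0.5.

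**Figure D5:**
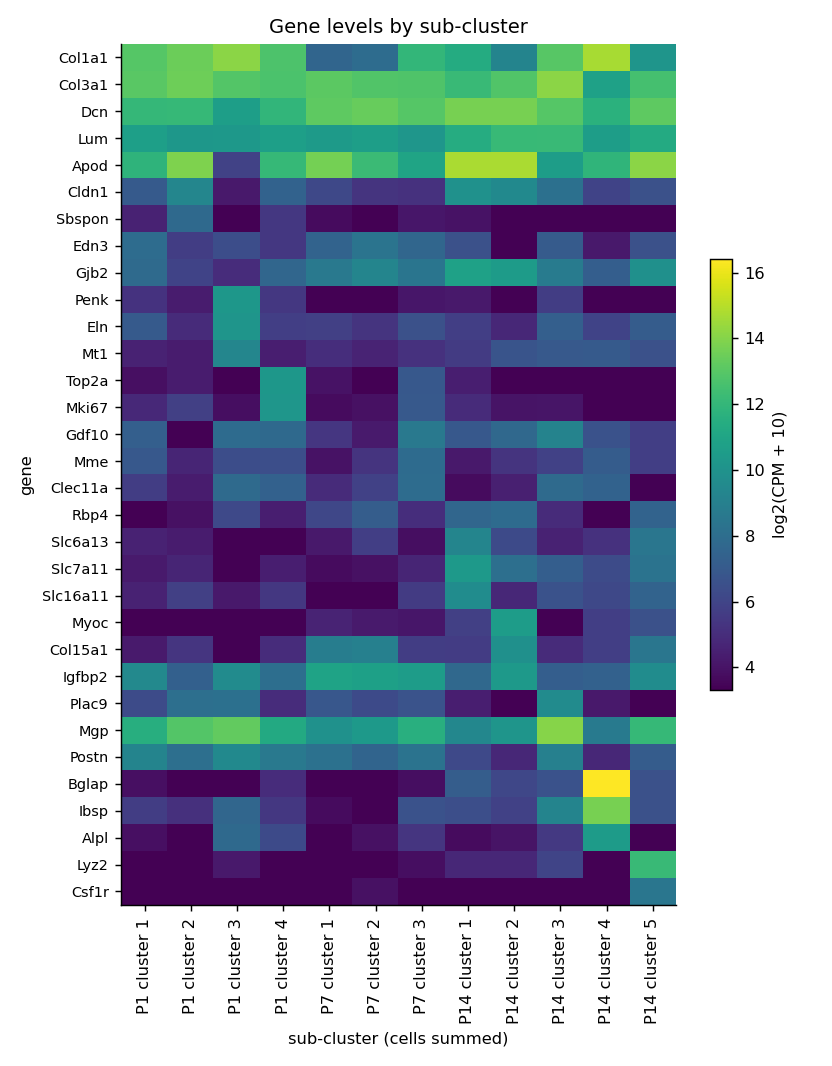
Level, as log2(CPM + 10), of selected genes in the summed cells of each of the 12 sub-clusters (4 at P1, 3 at P7, 5 at P14). Col1a1 is low in P7 clusters 1 and 2, Bglap, Ibsp and Alpl are high in P14 cluster 4, and Lyz2 and Csf1r in P14 cluster 5.

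The 30 cells of P14 cluster 4 were osteoblast-like. Among their 10 leading genes were Bglap, Prss35, Car3, Alpl, Ibsp, Cadm1, Ifitm5, Col11a2 and Ptprd, and Bglap, Alpl and Ibsp belong to the osteoblast markers. Bglap, osteocalcin, the vitamin K dependent protein that binds bone mineral, was at 87067 CPM, against 106 CPM in the other P14 fibroblasts. Ibsp, bone sialoprotein, was at 13522 CPM, Alpl, the tissue nonspecific alkaline phosphatase that frees phosphate for mineral, at 1451 CPM and Ifitm5, an osteoblast membrane protein, at 452 CPM. Their Col1a1 was 26270.5 CPM, the highest of the 12 sub-clusters, while Dcn (3319.7 CPM) and Col3a1 (1799 CPM) were the lowest at P14. Sp7, osterix, had no UMI in them. Their median UMI count was 2962, 1.84 times the median of the library.

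The osteoblast markers over all fibroblasts summed to 748, 667 and 17194 CPM at P1, P7 and P14, and all 8 that passed the filter were 2-fold or more higher at P14 than at P7. Of the 10091 Bglap UMIs of the P14 fibroblasts, 5 cells held 63.7%. Outside P14 cluster 4 the Bglap level was no higher than in endothelial cells (177 CPM) and macrophages (532 CPM) of the same library, so it is read as background there. At P1 and P7, the fibroblasts held 3 and 1 Bglap UMIs. Ibsp and Alpl were found at P1, with 83.3 and 77.8 CPM, and 44 of 61 Ibsp and 50 of 57 Alpl UMIs came from the 37-cell sub-cluster. Few cells carried them, since 5 cells of P1 held 73.8% of the Ibsp UMIs and 1 cell 36.1%.

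Because Bglap and Ibsp set these cells apart, the 150 bases before their start sites are shown from RefSeq (GRCr8, 5′ to 3′ on the strand of the gene). Capitals mark ACCACA or its reverse complement TGTGGT, the core recognized by Runx factors, searched on both strands in the 250 bases before the start. Bglap lies on the minus strand, and the stretch is chr2:176137319-176137468. For Ibsp, also on the minus strand, it is chr14:5757243-5757392.
Bglap: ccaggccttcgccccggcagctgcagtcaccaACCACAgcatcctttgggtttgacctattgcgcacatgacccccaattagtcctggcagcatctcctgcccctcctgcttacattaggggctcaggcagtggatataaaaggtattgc
Ibsp: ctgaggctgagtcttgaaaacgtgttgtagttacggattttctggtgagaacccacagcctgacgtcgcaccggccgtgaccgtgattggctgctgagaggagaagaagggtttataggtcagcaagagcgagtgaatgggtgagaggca
The motif begins 118 bases before the Bglap start, and Ibsp, Alpl, Ifitm5 and Col11a2 hold none in their 250 bases. It occurred in 14.5% of all 33469 promoters of the table. The match is a description of the letters. Of the 5 matrix genes of the selection, the table held Col1a2, without a match, and Lum, with 1 match 176 bases before its start.

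The collagen-rich cells left out by 1 limit were compared with the fibroblasts of the same library. At P7, the 394 cells past the Ramp3 limit alone had few differences, as 47 of 7661 genes (0.613%) were 2-fold or more higher in the fibroblasts and 9 (0.117%) lower. The Ramp3 level of the P7 fibroblasts had a median of 4.04 p10k, so the limit of 8 p10k lay close to the levels of many kept ones. Gdf10 (141 against 11.3 CPM), Clec11a (96.5 against 15.9 CPM), Sfrp4 (179.6 against 43.1 CPM) and Ibsp (29.3 against 2.72 CPM) were higher in the fibroblasts. Gcg, the gene of proglucagon, was lower, with 28.1 against 262 CPM, and so were Ramp1 (85.5 against 244 CPM) and Col15a1 (337 against 706 CPM). Apod was at 7479 against 14729.8 CPM.

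At P14, set against the 140 cells past the Ramp3 limit alone, 642 of 8654 genes (7.42%) were higher in the fibroblasts and 255 (2.95%) lower. The 140 cells were fewer and shallower than the 394 of P7, so the counts of both stages are not compared. The largest were Bglap, Ibsp, Car3 and Alpl of the osteoblast-like cells. Of the genes lower in the fibroblasts, Myoc (346 against 1129 CPM) and LOC100911545 (447 against 1491 CPM) were leading genes of the 115-cell sub-cluster. Against the 177 cells past the Coch limit alone, 482 of 8929 genes (5.4%) were higher and 278 (3.11%) lower. Lower in the fibroblasts were genes of fibrocytes and cartilage, Otor (167 against 1026 CPM), Col2a1 (187 against 1138 CPM), Col9a1 (796 against 3388 CPM), the transporter Slc4a11 (64.1 against 369.6 CPM) and Tnfrsf11b, osteoprotegerin (121 against 563 CPM). Alpl had no UMI in the cells past the Ramp3 limit at P14, which shows only that it was not detectable at their depth.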

How the data were processed

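Droplet 3′ RNA counts of the cochlear duct of Sprague-Dawley rats were analysed for 3 libraries, 1 each at P1, P7 and P14. The authors deposited UMI counts per gene and barcode, made with Cell Ranger 3.1.0 (per the file headers), with bcl2fastq and Seurat 3.1.1 named in the processing notes of the submitters and rn6 in the methods of the study. The annotation version is not given in the sources used here. Each matrix had 32623 genes, and the kept cells of the rule came from matrices of 114285848, 101264868 and 12616390 UMIs. Barcodes with more than 500 and fewer than 5000 genes and under 25% mitochondrial UMIs were kept, without doublet removal. The matrices hold 3 samples and no other columns.

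Fibroblasts were chosen by the limits in the report, and the members, gene lists and comparisons were chosen with earlier results of these data known. UMIs were summed per stage and scaled to CPM. Genes with 10 CPM or more in either stage were compared as log2 of CPM + 10, and 2-fold or more counted as a difference. With 1 library per stage no test was run. Intervals are exact Poisson or Clopper-Pearson at 95%, and 3 UMIs set the floor. Sub-clusters used 1000 variable genes, 10 principal components, 15 neighbours and Leiden resolution 0.5 within each stage, and those under 30 cells were not described in depth. Free RNA was read from endothelial cells (145, 205 and 987 cells) and macrophages (135, 153 and 98 cells), each set by marker genes at 20 p10k or more. Named were the genes of the rule, the 10 highest and 10 lowest ratios per comparison among genes with a UMI in 25% or more of the fibroblasts of the higher stage, the 15 genes most above the other kept cells, the 5 leading genes per sub-cluster, and list members by level or past 2-fold. Gdf10, Clec11a, Gcg, Mmp13 and the other genes of the comparisons with cells left out by 1 limit were chosen after their values were seen. Alternatives changed the limits, pseudocount, level filter, scaling (TMM in edgeR 4.0.16, R 4.3.3), thinning to 1000 UMIs, doublet calls by Scrublet, cells with other markers and the resolution. Scripts used Python 3.11.15, numpy 2.4.6, scipy 1.17.1, pandas 2.3.3, scanpy 1.11.5, anndata 0.12.19, scikit-learn 1.9.0 and matplotlib 3.10.9, and were tested on simulated data. Promoters were matched by symbol to a RefSeq table (GRCr8). Some genes of the lists are counted but not reported here by name.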

Additional observations from a re-analysis of the deposited data

Results flagged for a closer look

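Barcodes outside the cell filter were not used in any comparison, and some of them met the gene limits of the fibroblasts. There were 15 of 1289 such barcodes at P1, 20 of 1920 at P7 and 60 of 1077 at P14. At P1, 7 of the 15 had 500 genes or fewer and 13 had 25% or more mitochondrial UMIs, and at P7 these were 11 and 13 of the 20. All 60 at P14 had 500 genes or fewer, with a median of 687.5 UMIs. They held 27552 CPM of Col1a1, 8194 CPM of Dcn and 27322 CPM of Bglap, so the osteoblast gene Bglap was also present among the shallow barcodes of P14. At P1 and P7 the barcodes held 18292 and 5013 CPM of Col1a1 and 939 and 5972 CPM of Dcn, with no Bglap UMI.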

How the results depend on the processing

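No paired analysis was possible because each stage has 1 library. The share of fibroblasts moved with the limit on the matrix genes: at 100 p10k it was 1.84%, 2.62% and 12.5% at P1, P7 and P14, and at 300 p10k 0.274%, 0.0556% and 2.46% (35, 7 and 130 cells). With a mitochondrial limit of 10% it was 0.764% at P1, and with cells thinned to 1000 UMIs 1.80% at P7. Of the fibroblasts that could be thinned, 98 of 127 at P1, 84 of 144 at P7 and 332 of 426 at P14 met the limits again. P14 stayed the highest stage in all of these. Genes higher and lower at P7 than at P1, and higher and lower at P14 than at P7, numbered 1073, 1181, 1947 and 1012 with a pseudocount of 1 CPM, 255, 306, 553 and 378 with a filter of 50 CPM, and 1750, 3132, 3304 and 1561 at the limit of 300 p10k. Thinned, they were 1246, 1178 and 1718 for the first 3. For the limit of 300 p10k and the thinning, fewer cells or UMIs enter, and for the filter fewer genes. Of 539 ratios of named genes (49 ratios, 12 settings), 473 moved by less than the reach of their counting interval to either side, 65 by more, and 1 turned: Nell1 at P14 over P7 was 0.53 at 300 p10k, with 7 cells at P7. Sub-clusters at P7 numbered 5 at resolution 1.0 and 2 at 0.3, where the main number was 3. Scrublet marked 4.87%, 6.16% and 0.0379% of kept cells at P1, P7 and P14, so it did not work at P14, where doublets could not be assessed. Leaving out P14 clusters 4 and 5, or P1 cluster 4, was chosen after seeing the data. Depth limits the P14 cells most, with a median of 1523 UMIs, and genes under 4.10 CPM at P1 could not be told from 0.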

Other observations

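Apod was the gene of the retinoid, lipid and hormone list with the highest level, at 5567, 7479 and 19116 CPM at P1, P7 and P14, against 727, 2199 and 7971 CPM in the other kept cells and 67.9, 638 and 1222 CPM in endothelial cells. Within P14 it stood at 27468 and 27754 CPM in the sub-clusters of 217 and 115 cells and at 1537 CPM in that of 86 cells. The list had 4 genes higher and 2 lower of 15 (6.06% and 7.27% of all genes) at P7 against P1, with a median of 0.20, and 4 higher and 4 lower of 14 (12.7% and 6.56%) at P14 against P7, with a median of -0.21. Aldh1a1, Crabp2, Rbp4, a retinol carrier, and Hsd11b1, an activator of glucocorticoids, were higher at P7 than at P1, and Rbp4 was at 23.2 CPM at P1 and 139.5 CPM at P14. Apoe, at 4956 CPM at P14, was below its level in endothelial cells (5964 CPM) and macrophages (13892 CPM).

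Dmp1, a mineral-binding protein of osteocytes and odontoblasts, was at 35.5, 227 and 632 CPM in the fibroblasts. Unlike Bglap it was not kept to the osteoblast-like cells: at P14 it had 972, 1184 and 1243 CPM in the sub-clusters of 115, 86 and 30 cells and 49.2 CPM in that of 217 cells. Endothelial cells of the P14 library held 81.8 CPM of it.

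The dissociation and stress genes, which can respond to tissue digestion, had 0 higher and 2 lower of 16 (6.06% and 7.27% of all genes) at P7 against P1, with a median of -0.37, and 4 higher and 1 lower of 17 (12.7% and 6.56%) at P14 against P7, with a median of 0.79. The other kept cells had medians of -0.70 and 0.44. Of the marker lists not given above, pericyte and smooth muscle markers summed to 102, 14.7 and 108 CPM in the fibroblasts at P1, P7 and P14. Neutrophil markers summed to at most 47.8 CPM, and cartilage markers to 179, 667 and 1243 CPM. The other kept cells had 686, 1488 and 835 CPM of the cartilage markers. Of the P14 cartilage sum, Col11a2 was 706 CPM. It stood at 105 CPM without the osteoblast-like cells and those with macrophage markers. Tendon and ligament markers summed to 81.9, 89.2 and 26.4 CPM, neuron markers to 146, 52.5 and 25.1 CPM, and adipocyte markers to 51.9, 29.3 and 137 CPM. Perineurial markers summed to 259, 75.8 and 721 CPM, of which Cldn1 was 637 CPM at P14. Erythroid markers summed to 5.46, 30.5 and 136 CPM, and at P14 5 cells held 95.9% of the Hbb UMIs of the sub-cluster of 217 cells.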
